A study of Homo sapiens with 30 samples.

Results

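A set of 4475 promoters in MDA-MB-231, an established human triple-negative breast cancer cell line, carried SAP30 and SIN3B in the parental cells but no replicated SIN3A region. They were selected on the SAP30, SIN3A and SIN3B peak lists of the parental cells, 2 libraries each. Each summit, the single base of highest signal in a peak, was extended by 500 bp to both sides and merged with its neighbours, and a merged block with a summit of both replicates was kept as a consensus region of that protein. Consensus regions of the 3 proteins that overlapped were merged into 24456 regions, of which 13164 lay within 1000 bp of the start site of a protein-coding or lncRNA gene (GENCODE on GRCh37). Of 6385 regions with SAP30 and SIN3B and no SIN3A consensus region, 4475 (70.1%) met that promoter rule. The comparison classes were 5420 promoters with all 3 proteins and 2941 promoters with SAP30 and no replicated region of either SIN3 protein, called SAP30 alone below, although 27.8% and 17.1% of these held a SIN3B summit of replicate 1 or 2 and 5.92% and 6.19% a SIN3A summit. All sequence positions are on the hg19 build.

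SIN3A and SIN3B are alternative scaffolds of the SIN3 histone deacetylase complex, which carries HDAC1 or HDAC2. The scaffolds do not bind DNA themselves and are recruited to promoters by other proteins. SAP30 is a core subunit of the complex, with a zinc finger that may bind DNA. RNA polymerase II (Pol II) marks transcribed or poised genes, trimethylation of lysine 4 on histone H3 (H3K4me3) marks start sites, and acetylation of lysine 9 (H3K9Ac) is a mark of active chromatin that histone deacetylases remove.

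Pol II, H3K4me3 and H3K9Ac were profiled by ChIP-seq in parental cells and in SAP30-KO1, a CRISPR/Cas9 line made with 1 SAP30 guide that is a mix of several knockout clones, with 2 libraries per target and line. SAP30, SIN3A and SIN3B were profiled in the parental cells alone, so whether the SIN3B of these promoters changed without SAP30 was not measured here. Of 30 samples, the 18 with a peak list were analysed. The sources do not say whether replicate libraries came from separate cultures, so p-values measure the spread between these libraries, which may be technical. The lists hold peak positions and scores without read counts, so sequencing depth is unknown, and the lists differed in length, from 10861 peaks for the shorter SIN3A list to 54622 for the longer H3K9Ac list. Strength is given here as the rank of a region's best summit in its own list, in percent, where 0 is the best peak and 100 the weakest. Against the cell type markers, Pol II was found in both parental libraries at 5 of 6 mesenchymal genes (VIM, ZEB1, FN1, AXL and SNAI2, but not CDH2), and at 3 of 8 luminal genes (KRT8, KRT18 and EPCAM). The luminal hormone receptor genes ESR1 and PGR had no Pol II peak but had H3K4me3, which was present in both libraries at 7 of the 8 luminal and 5 of the 6 mesenchymal genes.

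The label without SIN3A held only in part. At 2131 of the 4475 promoters (47.6%) neither SIN3A list had a summit. A summit in exactly 1 of the SIN3A lists was present at 2309 promoters (51.6%), in list 1 at 1267 and in list 2 at 1042, and a further 35 had summits of both lists that did not fall into 1 consensus region. These single SIN3A peaks were weak as a group, with a median rank of 59.3% in list 1 and 62.2% in list 2, beside 31.4% and 31.7% at promoters with all 3 proteins. Some were strong: the best ranked at 5.33% in list 1 and 3.43% in list 2. The promoters are therefore called SAP30-SIN3B promoters below, meaning that they lack a replicated SIN3A region.

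What the rule used is described with no test. SIN3B had a median rank of 29.9% in replicate 1 and 37.8% in replicate 2 at SAP30-SIN3B promoters, beside 16.04% and 17.93% at promoters with all 3 proteins. SAP30 ranked at a median of 24.7% and 25.5%, beside 8.76% and 8.97%. At promoters with SAP30 alone its ranks were 44.01% and 47.93%. The 6 promoters with the best mean SIN3B rank belonged to SLC4A1AP, IDH3B (a subunit of mitochondrial isocitrate dehydrogenase), ZNF830 (a zinc finger protein), GET3 (an ATPase that targets tail-anchored membrane proteins), SAP30BP (a SAP30-binding protein) and GATB (a subunit of the mitochondrial glutamyl-tRNA amidotransferase). SLC4A1AP carried the best peak of the whole SIN3B replicate 2 list and IDH3B the best peak of replicate 1, both at rank 0%. Their SAP30 peaks were nearer the median, at 30.2% and 17.0% for SLC4A1AP and 34.7% and 44.8% for IDH3B. The 6 with the best mean SAP30 rank were a different set, at SMC4 (a condensin core subunit), ISOC2, SUV39H1 (a histone H3 lysine 9 methyltransferase), TEDC2, PEX16 (a peroxisome biogenesis factor) and TMEM50A. At SUV39H1 SAP30 ranked at 1.73% and 4.35% while SIN3B ranked at 46.4% and 86.0%.

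Of the 6 promoters with the best SIN3B rank, 5 had at least 1 of 2 short DNA words within 100 bp of the SIN3B summit of replicate 1, and 4 had one within 100 bp of that of replicate 2. The words are shown because their share followed the SIN3B rank over the whole set. They are CCGGAAG, which is the core of ETS factor sites, and AANATGGCG, which is read by YY1. For each promoter the copy nearest the SIN3B summit of replicate 1 within 100 bp is printed in a window of 30 bases, with the word in capitals, read 5′ to 3′ on the strand that carries it. The windows were read from GRCh37.
IDH3B YY1: ttcctgcgggaAACATGGCGgcattgagcg
ZNF830 YY1: tctggtcgccAAGATGGCGtcctccgcctc
GET3 YY1: agccagttccAAAATGGCGgcaggggtggc
SAP30BP YY1: ctgtgggaatAAGATGGCGgggaagaagaa
SAP30BP ETS: tgcctttccgcCCGGAAGtcggcgtcttga
GATB ETS: ataggctcggaCCGGAAGactactattccc
The IDH3B window (chr20:2644819-2644848, minus strand), the ZNF830 window (chr17:33288573-33288602, plus strand), the GET3 window (chr19:12848307-12848336, plus strand) and the SAP30BP YY1 window (chr17:73663440-73663469, plus strand) each spanned a 5′ UTR and the first coding bases of their gene. The SAP30BP ETS window (chr17:73663385-73663414, plus strand) and the GATB window (chr4:152682226-152682255, plus strand) overlapped no annotated transcript. The ETS word of SAP30BP was 5 bp from the SIN3B summit of replicate 1 and 3 bp from that of replicate 2. The YY1 word of IDH3B was 46 and 40 bp from them, that of ZNF830 31 and 55 bp, that of GET3 75 and 52 bp and that of SAP30BP 60 and 52 bp. The GATB word was 73 bp from the summit of replicate 1 and 131 bp from that of replicate 2. SLC4A1AP had neither word within 100 bp of either summit.

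Over all SAP30-SIN3B promoters the share with these words followed the SIN3B rank. The promoters were divided into quintiles by the mean of their ranks in both SIN3B lists, and both strands within 100 bp of the summit were searched. The ETS word was present at 32.6% of the best quintile (898 promoters) and 6.94% of the weakest quintile (864 promoters) around the summits of replicate 1. Around the summits of replicate 2 the shares were 26.1% and 4.40%. The YY1 word was present at 13.4% of the best and 1.16% of the weakest quintile in replicate 1, and at 13.1% and 1.16% in replicate 2. Either word was present at 43.1% and 37.9% of the best quintile and at 8.10% and 5.56% of the weakest. Around the start sites of all 20095 protein-coding genes, in windows of the same length, the ETS word was present at 10.8% and the YY1 word at 3.99%. The SP1 word GGGGCGG did not follow this order, with 21.6% and 20.5% in the best quintile and 28.6% and 23.7% in the weakest. Some other words searched were also more frequent in the best than in the weakest quintile in both replicates. CRE (TGACGTCA) was at 3.34% and 2.34% beside 0.810% and 0.694%, and CCAAT at 21.4% and 16.1% beside 15.9% and 14.1%. NRF1 (GCGCATGCG) was at 1.56% and 1.11% beside 0.347% and 0.231%. CTCGCGAGA and CACGTG also fell. AP-1 (TGANTCA) went the other way, with 2.004% and 1.893% beside 7.75% and 6.37%, as did GGAATG and TATAAA. The words were searched with earlier results of these data known, and a match is a description of letters, not of a bound factor.

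The same order was present at promoters with all 3 proteins, cut at the same SIN3B ranks. The ETS word was present at 24.2% and 18.8% of their best quintile and at 4.52% and 6.21% of their weakest, which held 177 promoters. The YY1 word was present at 6.90% and 6.59% of their best quintile, which was lower than the 13.4% and 13.1% of SAP30-SIN3B promoters by more than the difference between replicates. The YY1 word contains ATG, and in the best quintile of SAP30-SIN3B promoters 71.7% of promoters with the word in replicate 1, and 75.4% in replicate 2, had it at an annotated start codon. At promoters with all 3 proteins the corresponding shares were 50.9% and 55.3%. YY1 words away from a start codon were present at 3.90% and 3.23% of the best quintile of SAP30-SIN3B promoters and at 3.43% and 2.99% of the best quintile of promoters with all 3 proteins.

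**Figure D1:**
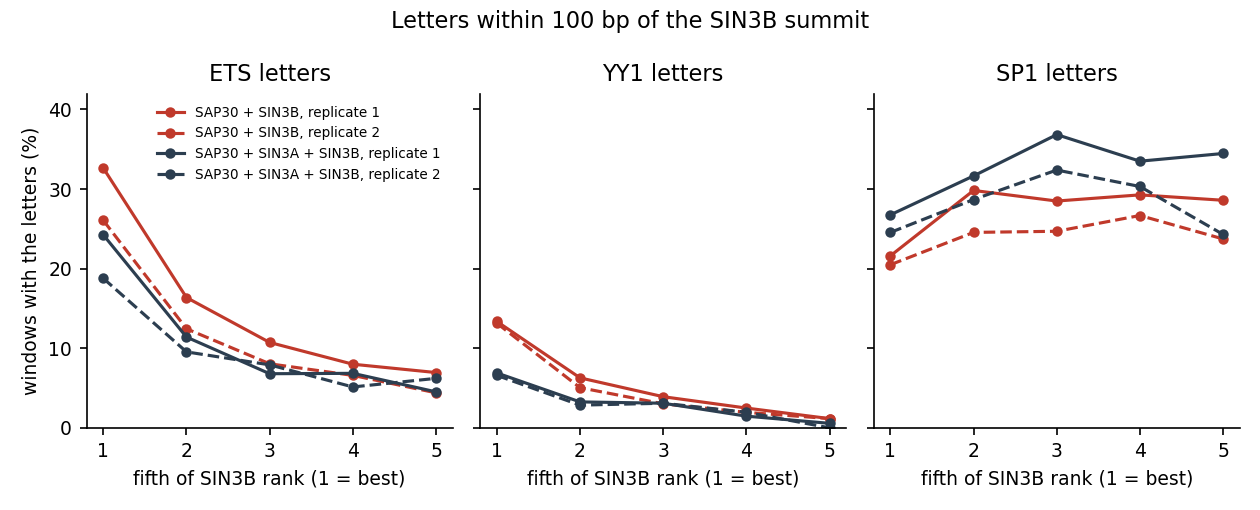
The share of promoters with ETS, YY1 or SP1 words within 100 bp of the SIN3B summit (y axis, %) is plotted against the quintile of SIN3B rank (x axis, 1 is best) for SAP30-SIN3B promoters (red) and promoters with all 3 proteins (dark blue), with summits of replicate 1 as solid and replicate 2 as dashed lines. ETS shares at SAP30-SIN3B promoters were 32.6% and 26.1% in the best and 6.94% and 4.40% in the weakest quintile, whereas SP1 shares were no higher in the best.

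SIN3B and SAP30 summits lay closer together where SIN3B was strong. The median distance between the best summits was 108.5 bp in replicate 1 and 94 bp in replicate 2 in the best SIN3B quintile, and 177 and 187.5 bp in the weakest. Around SAP30 summits the ETS word was present at 11.2% and 11.3% of SAP30-SIN3B promoters, 11.4% and 11.3% of promoters with all 3 proteins, and 4.66% and 4.35% of promoters with SAP30 alone. The AP-1 word TGANTCA was present at 4.72% and 4.96% of SAP30-SIN3B promoters, 1.96% and 2.31% of promoters with all 3 proteins and 10.0% and 9.49% of promoters with SAP30 alone. Of the 140 SAP30-SIN3B promoters with the AP-1 word at both SAP30 summits, 73.6% and 78.6% carried Pol II in the parental libraries, beside 95.6% and 97.2% of the 4182 with none, while H3K9Ac was at 98.6% and 96.4% of them. The E-box CACGTG, read by MYC-type factors, was present at fewer SAP30-SIN3B promoters than promoters with all 3 proteins, but averaged over 7 deciles of SAP30 rank its shares were 8.21% and 8.38% beside 7.63% and 7.75%.

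At the 2849 SAP30-SIN3B promoters with start sites on 1 strand, named by a protein-coding gene, the summits of both histone marks lay further into the gene than those of the other targets. SIN3B summits lay at a median of 17 bp and 69 bp downstream of the start site and SAP30 summits at 82 and 78 bp. Pol II summits lay at 23 and 24 bp in the parental and at 21 and 23 bp in the SAP30-KO1 libraries. H3K4me3 summits lay further into the gene, at 193 and 199 bp in parental and 206 and 181 bp in SAP30-KO1 cells, and H3K9Ac summits at 216 and 211 bp and at 212 and 216 bp. For each of these marks the difference between the lines was no larger than that between replicates. SAP30 summits at promoters with all 3 proteins were at 75.5 and 68 bp.

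**Figure D2:**
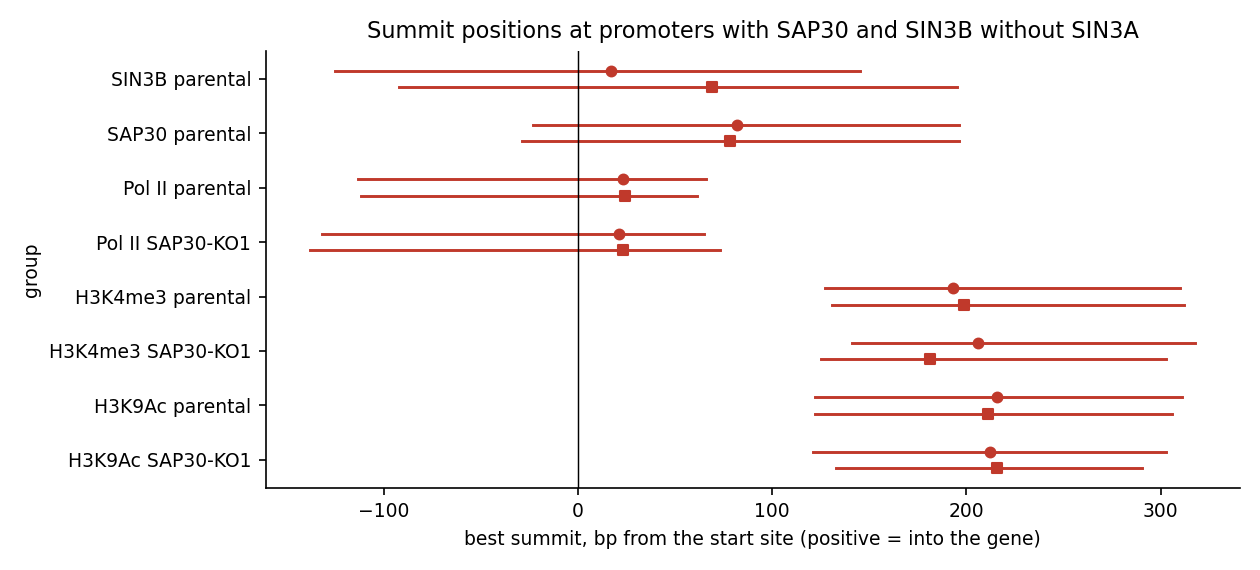
Distance of the best summit from the start site at SAP30-SIN3B promoters (x axis, bp, positive into the gene), with the median of each library as a circle (replicate 1) or square (replicate 2) and the quartiles as a line. Pol II medians lie between 21 and 24 bp, and those of H3K4me3 and H3K9Ac between 181 and 216 bp, in both lines.

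Of the SAP30-SIN3B promoters, 4022 were named by a protein-coding gene and 453 (10.1%) by a lncRNA gene. The lncRNA share was 3.04% among promoters with all 3 proteins and 23.1% among those with SAP30 alone. Start sites on both strands were present at 27.8% of SAP30-SIN3B promoters, 39.8% of promoters with all 3 proteins and 13.7% of those with SAP30 alone.

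Which genes carried these promoters differed between gene lists. Each gene was counted once, by its first class in the order all 3 proteins, SAP30-SIN3B, SAP30 alone. A gene counted under all 3 proteins can therefore also have a SAP30-SIN3B promoter. The gene lists below follow this count. Among all 20090 protein-coding genes 20.8% were counted under SAP30-SIN3B, 30.9% under all 3 proteins, 9.77% under SAP30 alone, and 37.5% had none of the regions. SAP30-SIN3B promoters touched 4399 protein-coding genes, of which 4184 were counted under SAP30-SIN3B. Genes of oxidative phosphorylation, the respiratory chain and ATP synthase of mitochondria, had SAP30-SIN3B promoters at 46 of 78 genes (59.0%). The genes named from these lists were picked for the best SIN3B ranks of their list. The median SIN3B rank over the 46 promoters was 10.7% and 13.7%. At NDUFB7, a complex I subunit, SIN3B ranked at 0.365% and 2.44%. At NDUFAB1, the mitochondrial acyl carrier protein, it ranked at 3.38% and 1.20%. Mitochondrial ribosomal protein genes followed, with 40 of 78 (51.3%). SIN3B ranked at 0.688% and 0.482% at the shared promoter of MRPL46 and MRPS11 and at 0.688% and 0.558% at MRPS22. Over the 39 promoters of that list the median SIN3B rank was 4.82% and 6.57%, beside 29.9% and 37.8% over all SAP30-SIN3B promoters. ZNF genes, which encode zinc finger transcription factors, were the largest group, with 220 of 508 genes (43.3%). SIN3B ranked there at a median of 21.8% and 29.1%.

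Other housekeeping groups were split between the classes. Of 87 cytosolic ribosomal protein genes 28 (32.2%) had SAP30-SIN3B promoters and 56 had all 3 proteins. Of 59 splicing genes the numbers were 20 (33.9%) and 35, of 48 proteasome genes 12 (25%) and 34, and of 89 translation factor genes 21 (23.6%) and 63. The median SIN3B rank was 11.6% and 15.7% over the cytosolic ribosomal protein promoters of this class. It was 9.16% and 8.35% for splicing and 7.67% and 7.28% for the proteasome. The genes named next were picked for the best SIN3B ranks of their list. At RPL7L1, a ribosomal protein paralogue, SIN3B ranked at 0.342% and 0.300%. At PSMB7, a catalytic subunit of the proteasome, SIN3B ranked at 1.52% and 0.141%, and at SNRPC, a protein of the U1 snRNP, at 1.38% and 0.370%.

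Of 40 genes of G2 and mitosis, 38 had all 3 proteins and 1, ESPL1 (separase, which cleaves cohesin), had a SAP30-SIN3B promoter. Of 40 E2F target and replication genes, 33 had all 3 proteins and 7 had SAP30-SIN3B promoters: POLA1 and POLA2 (DNA polymerase alpha subunits), POLD1 (the catalytic subunit of polymerase delta), PRIM1 (primase), GINS3, RPA2 and E2F2. Of 15 AP-1 genes 11 were counted under all 3 proteins and 0 under SAP30-SIN3B. Of the genes of cell identity, SAP30-SIN3B promoters were present at 4 of 25 luminal and epithelial genes, 4 of 18 mesenchymal genes (22.2%; ZEB1, SNAI2, LOX and S100A4) and 1 of 39 HOX genes (HOXC5). These are counts beside the share of all genes, and the lists were not tested against it.

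**Figure D3:**
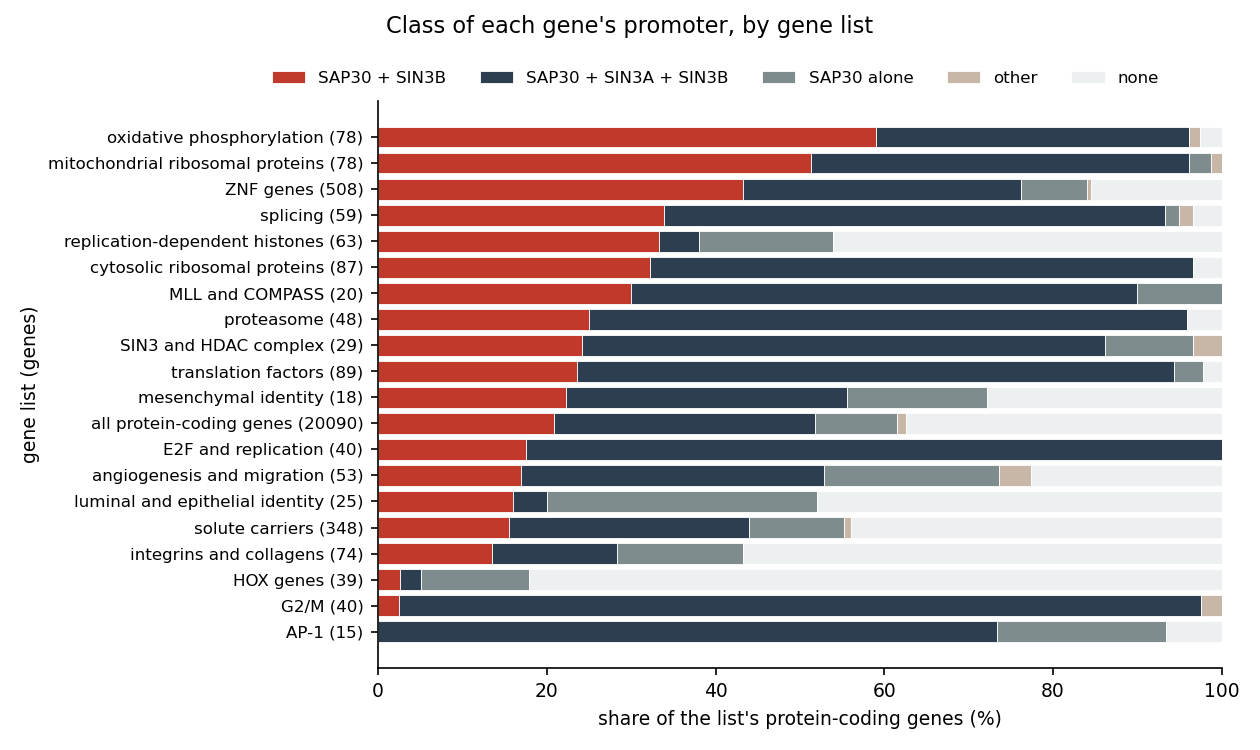
Share of the protein-coding genes of each list (x axis, %) by promoter class, with each gene counted once and the number of genes in brackets. SAP30-SIN3B promoters (red) take 59.0% of oxidative phosphorylation genes and 51.3% of mitochondrial ribosomal protein genes, beside 20.8% of all genes and 2.50% of G2/M genes.

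Genes of the SIN3 and MLL complexes were themselves in the set. Of 29 SIN3 and HDAC complex genes, 7 had SAP30-SIN3B promoters: SAP18, SAP130, SUDS3, EMSY, MORF4L1, MORF4L2 and GATAD1, while 18 had all 3 proteins. Of 20 genes of the MLL and COMPASS complexes, which place H3K4me3, the 6 were ASH2L, DPY30, CXXC1, SETD1A, KMT2B and PAGR1. A further 12 had all 3 proteins. Pol II was present in all 4 libraries at all 13 of these SAP30-SIN3B promoters, beside 86.0% of the whole set. Of the 9 genes the study followed, which were chosen by the study on these cells, HSPA6, an inducible heat shock protein, was the only one counted under SAP30-SIN3B. Neither SIN3A list had a summit there, which does not show that SIN3A was absent. The paper presents HSPA6 as a representative gene repressed by SAP30 and SIN3A/3B. It reports more accessible chromatin and more H3K9ac there in SAP30-KO1 cells. SAP30 ranked at 28.2% and 37.0% and SIN3B at 86.1% and 49.7%. The HSPA6 promoter carried no Pol II summit in any of the 4 libraries, but H3K4me3 at 38.8% and 31.2% in parental and 43.6% and 36.7% in SAP30-KO1 cells, and H3K9Ac at 40.0% and 40.8% and at 31.5% and 28.3%. Neither histone mark difference passed an adjusted p of 0.05 (limma adjusted p = 0.569 for H3K9Ac and 0.893 for H3K4me3). PDGFD, CLDN1, ADM2, NOTCH3 and ARTN had a replicated region of SAP30 alone, RDX and IPO13 had all 3 proteins, and PDGFB had none. For ADM2, CLDN1, PDGFD and RDX the paper measured SIN3A and SIN3B with ChIP-qPCR and reports that both were enriched. At ADM2, CLDN1 and PDGFD the class SAP30 alone means no replicated SIN3A or SIN3B region, not that these proteins were absent.

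The marks, which the rule did not use, were present at nearly all SAP30-SIN3B promoters. In parental cells Pol II was present at 94.6% in replicate 1 and 96.3% in replicate 2, a mean of 95.5% ± 1.22 (SD, n = 2). At promoters with all 3 proteins the shares were 99.1% and 99.3%, and at promoters with SAP30 alone 55.9% and 61.5%. The difference between SAP30-SIN3B promoters and those with all 3 proteins, -3.69 ± 1.06 percentage points (SD, n = 2), was larger than the spread between libraries. It was -1.75 ± 0.734 points averaged over deciles of SAP30 rank, and SAP30 rank itself differed between the classes. H3K4me3 was present at 97.6% and 97.4%, beside 99.8% and 99.7% with all 3 proteins, a difference of -2.22 ± 0.077 points. H3K9Ac was present at 99.1% and 99.1%, beside 99.5% and 99.5%, a difference of -0.398 ± 0.0344 points. With deciles of SAP30 rank the H3K9Ac difference was -0.0671 ± 0.308 points, smaller than its spread.

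Peaks were weaker than at promoters with all 3 proteins in each of the 12 libraries. The median Pol II rank at SAP30-SIN3B promoters was 33.4% and 30.7% in parental and 30.7% and 32.4% in SAP30-KO1 cells, beside 20.3%, 18.4%, 19.1% and 20%. For H3K4me3 it was 28.1% and 30.2% in parental and 32.8% and 29.3% in SAP30-KO1 cells, beside 17.0%, 18.4%, 19.2% and 17.4%. For H3K9Ac it was 13.2%, 13.7%, 14.5% and 14.1%, beside 8.90%, 9.13%, 9.44% and 9.22%. The ranges of these library medians did not overlap between the classes for any mark. Single promoters did overlap. For Pol II in parental replicate 1 the quartiles were 19.3% and 48.8% at SAP30-SIN3B promoters, beside 9.42% and 34.7%. A summit of all 3 marks in all 12 libraries was present at 3775 SAP30-SIN3B promoters (84.4%) and 5189 promoters with all 3 proteins (95.7%).

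SAP30-SIN3B promoters differed among themselves. The 2131 with no SIN3A summit had Pol II at 91.9% and 94.4% in parental cells with median ranks of 39.4% and 36.1%. The 2309 with a summit in 1 SIN3A list had Pol II at 97.1% and 98.1% with median ranks of 28.9% and 26.6%. SAP30 was also weaker at the first, with median ranks of 30.3% and 31.6% beside 20.3% and 21.1%. Along the quintiles of SIN3B rank, parental Pol II was present at 99.3% and 99.7% of promoters in the best and 85.8% and 89.4% in the weakest, and H3K4me3 at 99.6% and 99.7% and at 94.9% and 93.8%. The best SIN3B quintile did not have the best Pol II ranks: its medians were 30.6% and 27.5%, beside 29.0% and 25.8% in the next.

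**Figure D4:**
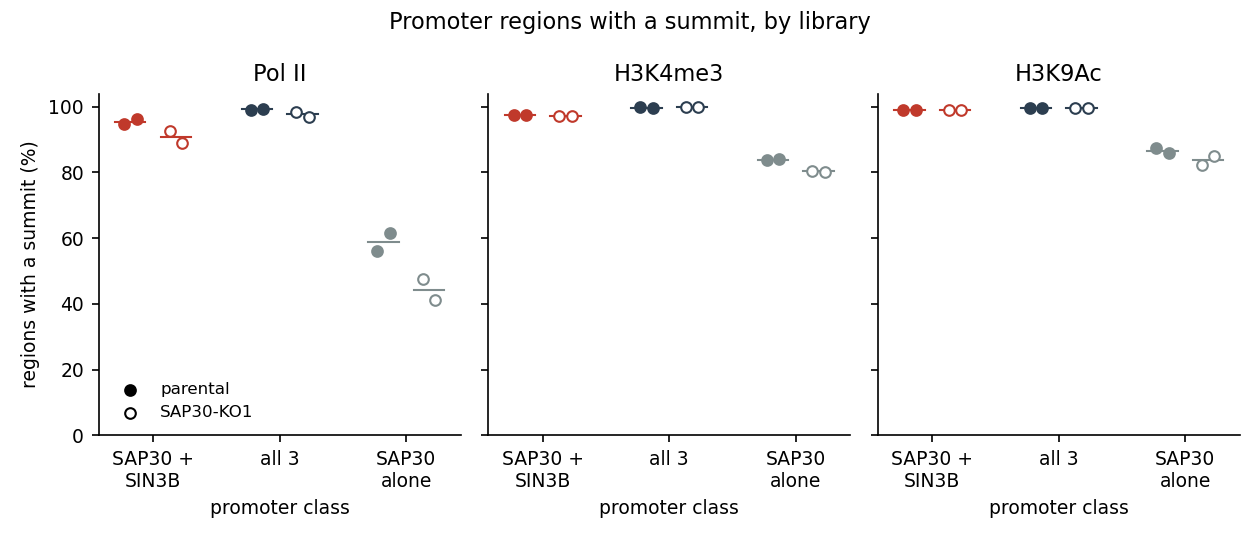
Share of promoter regions with a summit of each mark (y axis, %) in each library, by class, with filled points for parental and open points for SAP30-KO1 libraries and a line at the mean of each pair. Pol II at SAP30-SIN3B promoters (red) was at 94.6% and 96.3% in parental and 92.5% and 88.8% in SAP30-KO1 libraries.

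The 6 SAP30-SIN3B promoters with the best parental Pol II ranks were those of PARP2 (a poly-ADP-ribose polymerase), TAF12 (a TFIID subunit), POLDIP3, ACTB (beta actin), H1-2 (a linker histone) and ENSG00000255432, which shares its region with C11orf98 and CSKMT. At PARP2 Pol II ranked at 0.00482% and 0.0348% in parental and 0.0386% and 0.0814% in SAP30-KO1 cells, and at ACTB at 0.135% and 0.100% and at 0.0985% and 0.0588%. At TAF12 Pol II ranked at 0.0193% and 0.0261% in parental cells although H3K4me3 ranked only at 72.9% and 94.0%. The regions named PARP2, TAF12 and POLDIP3 each also held a start site of another gene: ENSG00000259001, ENSG00000270103 and ENSG00000270022. Their Pol II peaks can therefore not be assigned to the named gene alone. The snRNA genes RNU4ATAC and RNU7-1 lay at the members in the 10 and 11 places of that order, 153 and 141 bp and 200 and 199 bp from the parental Pol II summits. The snoRNA gene SNORA57 lay at the ENSG00000255432 region, 89 and 130 bp from the parental Pol II summits. These small RNA genes were looked for after the ranks were seen.

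Of 63 replication-dependent histone genes, which are expressed in S phase and lie in clusters of near-identical copies, 21 (33.3%) had a SAP30-SIN3B promoter, 3 had all 3 proteins and 29 had none of the regions. These 21 genes shared 13 regions, of which 11 had a Pol II summit in each parental library. Where it was present, its median rank was 0.424% and 0.352%, beside 33.4% and 30.7% over all SAP30-SIN3B promoters. Their median H3K4me3 rank was 42.5% and 48.3%, weaker than the 28.1% and 30.2% over all. At the H2AC11 and H2BC11 promoter Pol II ranked at 0.364% and 0.322% in parental and 0.536% and 0.703% in SAP30-KO1 cells. Counted by gene symbol, 11 of the 100 SAP30-SIN3B promoters with the best Pol II held a histone gene, of 15 among all 4475. Reads that fit several histone copies could have been placed at any of them, so the values of single histone genes are uncertain.

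In SAP30-KO1 cells Pol II was present at 92.5% and 88.8% of SAP30-SIN3B promoters, a mean of 90.7% ± 2.56 (SD, n = 2), which was 4.82 percentage points below the parental mean. Both knockout libraries were below both parental libraries, and the two-sided exact permutation test gave p = 0.333, the smallest p that 2 libraries against 2 allow. At promoters with all 3 proteins the mean was 97.7% beside 99.2%, and at promoters with SAP30 alone 44.3% beside 58.7%, so the share was lower in all 3 classes. The shares of H3K4me3 were 97.2% and 97.3% and those of H3K9Ac 99.0% and 98.9%, which were 0.257 and 0.134 points below the parental means (exact permutation p = 0.333 for each). The knockout Pol II lists also split promoters into more peaks: 40.6% and 43.5% of the SAP30-SIN3B promoters with Pol II had at least 2 summits, beside 26.6% and 24.9% in parental cells (exact permutation p = 0.333). The other classes rose too. With all 3 proteins the shares were 47.9% and 49.6% beside 29.9% and 30.5%, and with SAP30 alone 24.1% and 25.6% beside 14.5% and 15.5%. At SAP30-SIN3B promoters the rise was not seen for H3K4me3, with 19.6% and 32.4% beside 25.8% and 17.2%.

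Pol II was lost, that is present in both parental and in neither knockout library, at 87 of 4205 SAP30-SIN3B promoters (2.07%). Over all merged regions the background was 6.34%, and over all promoter regions 2.99%, so the loss was not above the background. It was 0.280% at promoters with all 3 proteins and 14.7% at promoters with SAP30 alone. Without knockout replicate 1 the count was 290 and without knockout replicate 2 it was 154. The promoters concerned had weak Pol II in parental cells, with median ranks of 66.2% and 62.1%, and 80 of the 87 were in the weakest quintile of parental rank. Within that quintile 8.57% of SAP30-SIN3B promoters had lost Pol II, beside 3.54% of promoters with all 3 proteins and 24.97% of those with SAP30 alone. Of the 87, 85 had H3K9Ac and 80 had H3K4me3 in both knockout libraries. With no SIN3A summit the loss was 59 of 1940 (3.04%), and with a summit in any SIN3A list 28 of 2265 (1.24%).

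**Figure D5:**
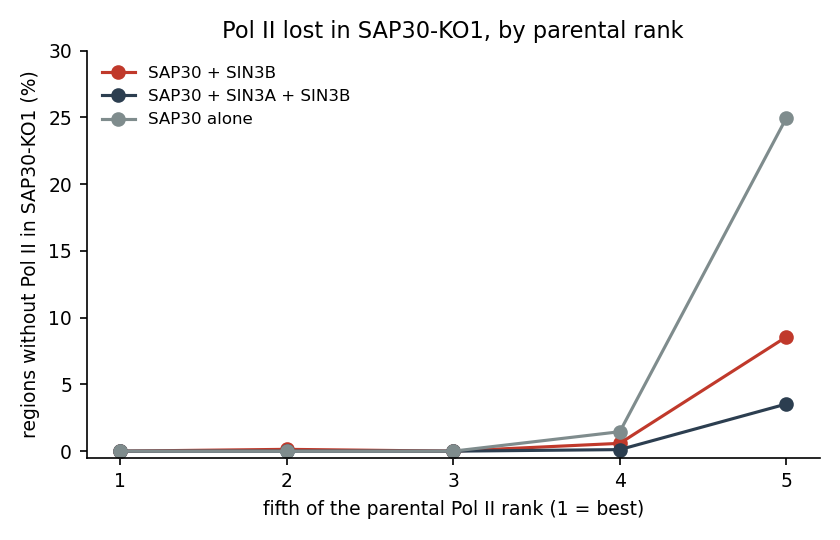
Share of promoter regions with Pol II in both parental libraries that had none in either SAP30-KO1 library (y axis, %), by quintile of the parental Pol II rank over all promoter regions (x axis, 1 is best). In the weakest quintile the shares were 8.57% for SAP30-SIN3B promoters, 3.54% with all 3 proteins and 24.97% with SAP30 alone.

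The lost promoters with the best parental Pol II were those of GFPT2, ALKBH2, WWOX and TRIM16. At GFPT2, an enzyme of hexosamine synthesis, Pol II ranked at 27.2% and 16.7% in parental cells and was listed in neither knockout library. H3K9Ac at GFPT2 ranked at 40.1% and 55.2% in parental and 87.3% and 72.9% in knockout cells, and H3K4me3 at 48.9% and 51.9% and at 64.0% and 56.5%. Among regions with a peak in all 4 libraries neither difference passed (limma adjusted p = 0.594 for H3K9Ac and 0.509 for H3K4me3). At ALKBH2, a DNA repair dioxygenase, Pol II ranked at 46.9% and 34.9% in parental cells and was listed in neither knockout library, and the differences of the histone marks did not pass (limma adjusted p = 0.246 for H3K4me3 and 0.675 for H3K9Ac). Pol II was gained, the reverse, at 4 of 135 SAP30-SIN3B promoters without parental Pol II, beside a background of 0.644% of all merged regions, promoter or not. Among promoters it was gained at 2 of 32 with all 3 proteins and at 11 of 1022 with SAP30 alone. The 4 SAP30-SIN3B promoters were TBCC (a tubulin folding cofactor), BRD2 (a bromodomain protein that binds acetylated histones), H2BC21 and the lncRNA gene ENSG00000263717. At TBCC the knockout ranks were 5.50% and 4.59%, which is a strong peak, whereas at BRD2 they were 56.3% and 0.703%. The count of 4 was not stable: it was 31 with summits extended by 250 bp and 1 with 1000 bp.

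H3K4me3 was lost at 5 of 4343 SAP30-SIN3B promoters (0.115%), beside 2.1% of all merged and 0.699% of all promoter regions, and gained at 2 of 91, beside 0.464% of all merged regions. Gains at promoters with all 3 proteins were 0 of 10, and with SAP30 alone 5 of 441. The lost SAP30-SIN3B promoters included LY6K, UCN2, DPP9 and the lncRNA gene LINC00572, and the gained ones were FKBP14 and ENSG00000289259. H3K9Ac was lost at 5 of 4418 SAP30-SIN3B promoters (0.113%), beside 1.42% of all merged and 0.6% of all promoter regions, and gained at 3 of 24, beside 7.64% of all merged regions. Gains at promoters with all 3 proteins were 2 of 20, and with SAP30 alone 21 of 272. The lost SAP30-SIN3B promoters included SDR42E1, ATP2B4, WNT2B and BCL11A, and the gained ones were GPSM3, PDE4A and LINC03061. All these counts at SAP30-SIN3B promoters were below 6, and several moved more than 1.5 times with the extension of summits or when 1 library was left out.

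Score ranks were compared between the lines with limma, on normal scores of the rank among regions with a peak in all 4 libraries and with Benjamini-Hochberg adjustment over all of them. For Pol II, 0 of 3848 SAP30-SIN3B promoters passed an adjusted p of 0.05 (350, or 9.10%, had an unadjusted p under 0.05), beside a background of 0.052% of all regions. Leaving out 1 library changed this count: without knockout replicate 1, 55 passed as higher and 115 as lower, and without knockout replicate 2, 25 and 55. For H3K9Ac it was 0 of 4390 (344 at an unadjusted p under 0.05), beside 0.0105%. For H3K4me3, 2 of 4316 passed, beside 0.331%. At SDR42E1, a predicted short-chain dehydrogenase on chromosome 16, H3K4me3 fell by 1.75 ± 0.16 (SE) normal-score units (limma adjusted p = 7.6e-06). Its position among the regions tested went from 72.9% and 72.7% in parental to 98.2% and 99.6% in knockout libraries. Pol II at SDR42E1 was present in both parental libraries, at 89.7% and 85.9%, and in neither knockout library, and H3K9Ac, at 80.3% and 45.1% in parental cells, was also listed in neither. At RPS6KA2, a ribosomal S6 kinase, H3K4me3 rose by 0.75 ± 0.13 units (limma adjusted p = 0.00788), from 78.0% and 74.6% to 46.7% and 50.7%. H3K9Ac at RPS6KA2 differed by 1.06 ± 0.23 units in the same direction and did not pass (limma adjusted p = 0.341), although both knockout libraries were above both parental libraries.

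Over all SAP30-SIN3B promoters tested, the median difference of normal scores, knockout minus parental, was -0.0083 at Pol II, -0.0033 at H3K4me3 and 0.0077 at H3K9Ac. The scores are ranks within each library, so a change shared by all regions tested cannot appear in them. Promoters on the long arm of chromosome 11 stood apart. Their median difference was -0.43 for Pol II over 109 promoters, -0.27 for H3K4me3 over 126 and -0.38 for H3K9Ac over 130. Each knockout library taken alone gave the same sign, with -0.46 and -0.38 for Pol II. The sign was negative at 75.2%, 81.7% and 86.2% of them. On 16q the medians were -0.19, -0.14 and -0.14. On Xq the medians had the opposite sign, with 0.27, 0.17 and 0.11. Other arms also deviated, such as 4p with 0.14, 0.17 and 0.29. On 20p the medians were 0.27, 0.040 and -0.051. Pol II was lost at 6 of 123 promoters on 11q and at 81 of 4082 elsewhere.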

How the data were processed

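ChIP-seq of 30 samples was aligned and called by the authors (FastQC 0.11.2, Bowtie2 2.3.3.1, Picard and MACS2 2.1.0 on hg19, per the submitters' processing notes). The deposited lists used here hold 1 summit per line with its −log10 q-value, per library; 12 input and histone H3 samples were not analysed here. Scores depend on depth, which is unknown, so ranks within each list were used. The 4475 members, the gene lists and the words searched were chosen with earlier results of these data known.

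Regions, classes and words were computed with Python 3.11.15 and pandas 2.3.3. Shares were compared with exact permutation tests (scipy 1.17.1), and rank scores with limma 3.58.1 (eBayes with trend). The steps were tested on simulated data. A promoter was named by the protein-coding gene whose start site lay nearest its midpoint, otherwise by the nearest lncRNA gene. Named promoters were the 6 with the best SIN3B, SAP30 and Pol II ranks, up to 4 lost and 4 gained per mark, up to 5 passing limma per direction, and genes of the fixed lists, of which those with the best SIN3B rank were taken. Alternatives changed the summit extension, promoter window, lists, scale and libraries.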

Additional observations from a re-analysis of the deposited data

How the results depend on the processing

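The values were recomputed under other settings, and 72 were rated the same, 79 moved and 1 changed sign. The cause was not tested. The same meant within 1.5 times for a count and within the replicate spread for a difference between classes. For a knockout minus parental share it meant only an unchanged sign. In the better 50% of each mark list that share was -4.32 points for H3K4me3 (exact permutation p = 0.667), beside -0.257 at the main setting. For Pol II it was -7.94 (exact permutation p = 0.333) beside -4.82. The set held 2131 promoters without any SIN3A summit and 1580 with all 6 lists limited to equal length, of which 96.7% overlapped a member. With the better 50% of each list it held 4502, of which 52.6% overlapped a member. The difference to promoters with all 3 proteins stayed negative: for Pol II it was -5.96 points with 250 bp, -6.02 without any SIN3A summit, -0.547 with equal lists, -1.75 by SAP30 decile and -16.4 in the better 50% of the mark list. In that order it was -5.16, -3.77, -0.98, -0.931 and -10.7 for H3K4me3 and -3.02, -0.783, -0.104, -0.0671 and -1.67 for H3K9Ac. The knockout minus parental H3K4me3 share was 0.472 with 250 bp (exact permutation p = 0.667). With 250 bp, Pol II gains were 31, H3K4me3 losses 12 and gains 25, and H3K9Ac losses 22 and gains 21. With 1000 bp, Pol II gains were 1, H3K4me3 losses 9 and H3K9Ac gains 0. In the better 50% of lists, Pol II losses were 5 and gains 1, H3K4me3 losses and gains 0, and H3K9Ac losses 2 and gains 1. With lists of equal length, H3K4me3 losses were 2. On log2 scores limma called 1 promoter higher for Pol II and 3 higher and 4 lower for H3K4me3. In the better 75% of regions Pol II had 1 higher call, while the lower calls of H3K4me3 were 0.

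When each of the 4 libraries of a mark was left out in turn, Pol II losses ranged from 103 to 290 and gains from 7 to 30, H3K4me3 losses from 12 to 19 and gains from 5 to 11, and H3K9Ac losses from 7 to 17 and gains from 6 to 10. The limma calls ranged from 0 to 55 higher and 0 to 115 lower for Pol II, 1 to 8 and 2 to 6 for H3K4me3, and 0 to 5 and 0 to 9 for H3K9Ac. In these fits the lone library was assumed to vary like the other line.

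Samples with the same replicate number did not deviate together (correlations of 0.013, -0.017 and -0.00011), so the numbers do not pair them. With the replicate block, limma called 1 higher for Pol II, 15 higher and 12 lower for H3K4me3, and 3 higher and 4 lower for H3K9Ac. Peak lists without read counts limit what depth can show, and 2 libraries per group cannot reach an exact p below 0.333.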
